A study of Sus scrofa with 12 samples.

Results

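RNA levels are described for 9 genes of plasminogen activation, serpins and coagulation, SERPINE2, SERPINF1, SERPINF2, SERPING1, PLAU, PLAUR, PLAT, F3 and THBD. They were chosen by name, with earlier results of these data known, out of the 35682 gene identifiers counted in each library. All 9 were found under their pig symbols, and 8 passed the filter on low counts. RNA was taken from the hearts of 6 female Yorkshire pigs, numbered 1022, 1322, 1323, 1623, 1922 and 3622. When every pig was 10 to 12 weeks old, a balloon closed its left anterior descending coronary artery for 60 min, and blood flow was then restored. From day 9 after this injury every pig received tacrolimus at 0.75 mg/kg, mycophenolate mofetil at 500 mg and prednisolone at 20 mg each day, with later adjustment to target tacrolimus levels. On day 14 the heart surface received either vascular organoids, made of human endothelial progenitor cells and human smooth muscle cells, or fibrin glue without them, and the hearts were collected 4 weeks after that surgery. Each pig gave 1 library of the border zone, the section next to the infarct, and 1 of the remote zone, on the posterior wall. The labels do not say which pigs received organoids, so both zones hold pigs of both treatments, and the comparison made here is border zone against remote zone.

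Plasminogen is a circulating precursor that becomes plasmin, the protease that dissolves fibrin and helps to break down matrix. PLAT encodes tissue plasminogen activator and PLAU encodes urokinase, which acts at the cell surface when bound to its receptor, encoded by PLAUR. Serpins are protease inhibitors that trap their target in a covalent complex. SERPINE2 encodes protease nexin, an inhibitor of thrombin, urokinase and plasmin that cells hold at their surface and in matrix, SERPINF2 encodes antiplasmin, which the liver secretes, and SERPING1 encodes C1 inhibitor, which restrains the complement proteases C1r and C1s and plasma kallikrein. SERPINF1 encodes pigment epithelium-derived factor, a serpin by fold that does not inhibit proteases and is known for blocking vessel growth. F3 encodes tissue factor, which starts coagulation, and THBD encodes thrombomodulin, the endothelial receptor that turns thrombin towards activating protein C.

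Levels are given as CPM, the counts of a gene scaled to libraries of a common size, after TMM scaling, which corrects for libraries in which a few genes take many reads. The 12 libraries held between 15130210 and 31618680 counts on genes. The border zone library of pig 3622 had the lowest total and the most genes detected, 28024, against 16932 to 20148 in the other 11 libraries. Over all genes, 287 of 13844 tested (2.07%) passed the threshold, an adjusted p under 0.05 (quasi-likelihood test of edgeR, Benjamini-Hochberg adjustment), and 285 of them were higher in the border zone. Cardiomyocyte markers summed to between 12140 and 72680 CPM in the border zone and to between 59000 and 108800 CPM in the remote zone, so both zones held heart muscle. Fewer cells of a type and less RNA per cell cannot be told apart in such tissue libraries.

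SERPINE2, SERPINF1 and PLAT passed the threshold as higher in the border zone, with no overlap between the 6 libraries of each zone. Both held for 3 of the 8 genes tested, beside 2.06% of all genes for the threshold and 1.99% for the lack of overlap. The genes were chosen with earlier results of these data known, so shares and medians here describe them without testing the group. SERPINE2 was 3.30-fold higher, PLAT 2.83-fold and SERPINF1 2.65-fold. PLAU was also higher in the border zone library of all 6 pigs, though its zones overlapped, and PLAUR and SERPING1 were higher in 5 of 6 pigs. None of these last 3 passed the threshold. F3 and THBD did not pass either, with smaller fitted log2 differences of -0.20 ± 0.38 and 0.54 ± 0.28 (SE). SERPINF2 was near the limit of detection throughout. With the pig as a block in the same test, only SERPINE2 passed of the 8, against 0.289% of all genes that passed in that direction. The median log2 fold change of the 8 genes was 1.45, beside 0.04 over all genes tested.

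**Figure D1:**
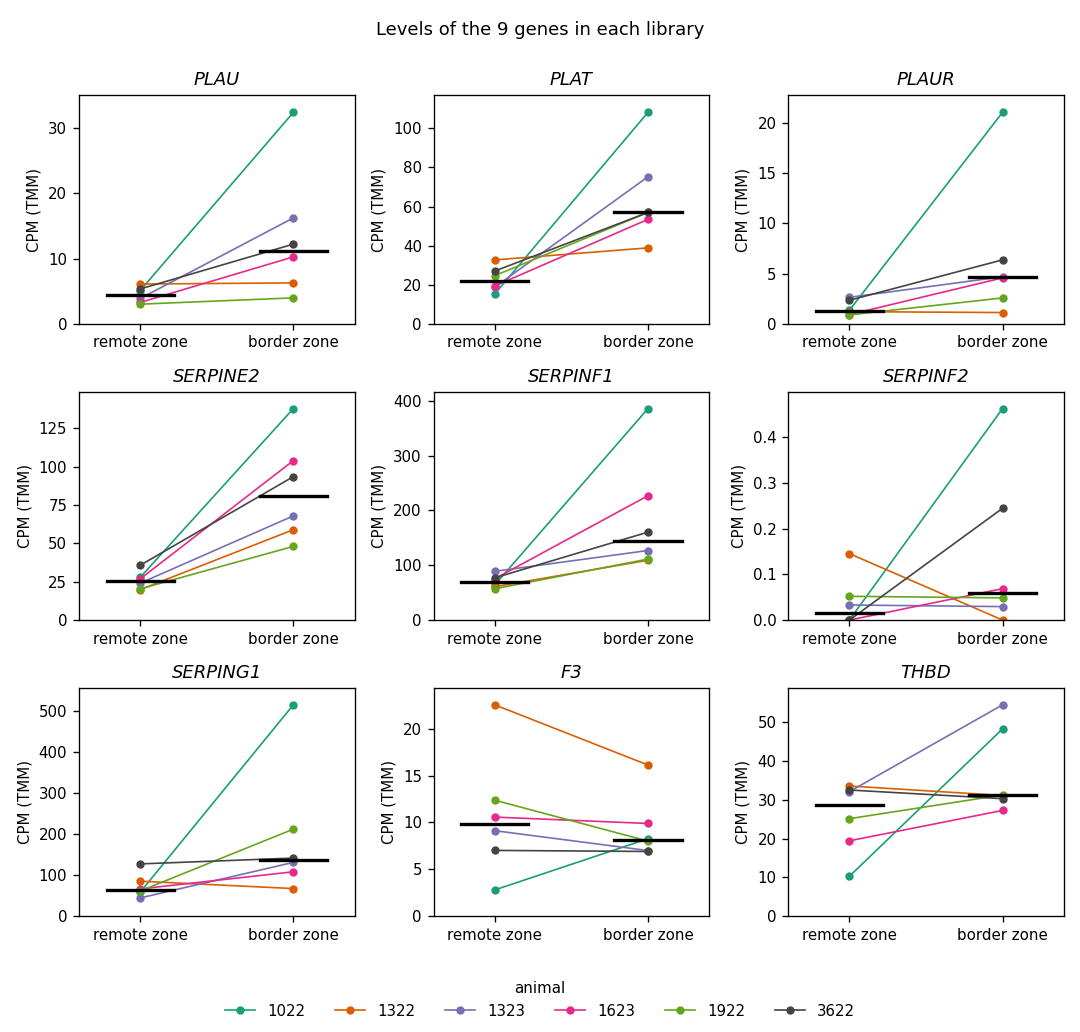
CPM (TMM-scaled) of each of the 9 genes in the remote and border zone library of each of 6 pigs, each gene on its own axis; a line joins the libraries of 1 pig and the black bar is the median of a zone. For SERPINE2, SERPINF1 and PLAT all border zone points lie above all remote zone points, and pig 1022 has the highest border zone point in 7 of the 9 panels.

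The sequence before the start of the 3 genes that passed is shown because their levels differed in the same direction. The 250 bases before each annotated start were read from the RefSeq annotation of Sscrofa11.1, at chr15:125777789-125778038 on the minus strand for SERPINE2, chr12:47948754-47949003 on the plus strand for SERPINF1 and chr17:11223822-11224071 on the minus strand for PLAT. They are written 5′ to 3′ and end at the base before the start. Capitals mark matches to TATAAA (the TATA box), CCAAT (the CCAAT box), GGGCGG (the GC box), TGANTCA (the AP-1 site) or CAGAC (the SMAD box) on either strand.
SERPINE2: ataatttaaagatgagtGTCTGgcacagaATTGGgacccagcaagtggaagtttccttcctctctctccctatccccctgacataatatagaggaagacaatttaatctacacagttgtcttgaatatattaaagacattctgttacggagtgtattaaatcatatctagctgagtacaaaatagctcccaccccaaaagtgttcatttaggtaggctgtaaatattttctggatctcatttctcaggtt
SERPINF1: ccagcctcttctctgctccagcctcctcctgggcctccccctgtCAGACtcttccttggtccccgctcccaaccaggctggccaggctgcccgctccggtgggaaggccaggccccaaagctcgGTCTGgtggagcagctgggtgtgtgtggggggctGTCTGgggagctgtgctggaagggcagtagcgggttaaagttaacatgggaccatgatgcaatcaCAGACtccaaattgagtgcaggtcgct
PLAT: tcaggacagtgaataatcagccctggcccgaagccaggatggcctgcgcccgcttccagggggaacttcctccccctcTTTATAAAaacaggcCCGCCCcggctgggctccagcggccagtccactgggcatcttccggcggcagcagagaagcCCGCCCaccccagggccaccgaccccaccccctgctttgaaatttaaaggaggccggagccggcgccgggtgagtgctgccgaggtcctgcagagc

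The SERPINE2 window held 1 CCAAT match, which reads ATTGG on this strand, and 1 SMAD box. The SERPINF1 window held 4 SMAD box matches and none of the other motifs. In PLAT there were 2 GC boxes and 2 TATA matches, the latter being 1 overlapping stretch read on both strands. No motif was thus present in all of them. Over 20664 windows of the same length, the TATA box was found in 10.4%, CCAAT in 32.0%, the GC box in 44.4%, the AP-1 site in 5.48% and the SMAD box in 38.7%. Among the 9 genes the numbers with a match were 2, 4, 4, 2 and 3, in that order. A match describes letters, and no binding was measured.

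The activators and their receptor came next. PLAT lies on chromosome 17 (11195599 to 11223821, minus strand), with 16 exons. Its border zone levels were 108 CPM in pig 1022, 38.9 in 1322, 75.2 in 1323, 53.4 in 1623, 57.0 in 1922 and 57.0 in 3622. In the remote zone they were 15.3, 32.7, 18.8, 19.4, 24.6 and 27.0 CPM, in the same order. Pig 1322 stood at the edge of both zones, with the lowest border and the highest remote value, and the zones did not overlap. PLAT was higher in the border zone by 1.50 ± 0.25 on the log2 scale (SE, n = 6 per zone; adjusted p = 0.0189 by edgeR's quasi-likelihood test). With the pig as a block the difference was 1.47 ± 0.30 and the adjusted p was 0.0717, past the threshold in the unblocked fit but not in this one.

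PLAU lies on chromosome 14 (76629313 to 76635173, plus strand). Its level was lower than that of PLAT, with 3.98 to 32.5 CPM in the border zone (median 11.3) and 3.02 to 6.10 CPM in the remote zone (median 4.50). The border zone was higher in all 6 pigs, which held for 11.7% of all genes tested, but by 1.03-fold in pig 1322 and 1.32-fold in pig 1922. In pig 1022 the difference was 6.35-fold. The log2 difference of 1.61 ± 0.42 (SE) had an adjusted p of 0.0576 by edgeR's quasi-likelihood test, short of the threshold. Of the 2375 exon bases of PLAU, 115 overlap exons of CAMK2G on the opposite strand. CAMK2G was at 38.7 to 102 CPM, and since the libraries did not keep strand, reads from this stretch cannot be assigned to either gene.

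PLAUR, on chromosome 6 (50489773 to 50505453, minus strand), had the largest fitted difference of the 8 genes and also the widest spread. Border zone levels ran from 1.12 CPM in pig 1322 to 21.0 CPM in pig 1022, an 18.8-fold range, with a median of 4.62 CPM. The remote zone held 0.884 to 2.63 CPM, which rests on 17 to 80 counts per library. The zones overlapped, and pig 1322 was the pig in which the border zone was not higher. The log2 difference was 2.11 ± 0.59 (SE), with an adjusted p of 0.0693 by edgeR's quasi-likelihood test. Without the border zone library of pig 1022 it was 1.30, below the 1.52 of SERPINE2 in that fit, and without pig 1022 altogether it was 1.26.

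SERPINE2 gave the smallest p of the 8 genes, at place 12 among all 13844. It lies on chromosome 15 (125748383 to 125777788, minus strand), with 10 exons. The border zone held 138 CPM in pig 1022, 58.9 in 1322, 67.9 in 1323, 104 in 1623, 48.0 in 1922 and 93.5 in 3622. The remote zone held 27.8, 19.9, 24.0, 26.8, 20.3 and 35.7 CPM in the same order. The lowest border zone library was thus above the highest remote zone library, and the difference within a pig was between 2.36-fold and 4.96-fold. Its spread over pigs, an SD of 0.40 on the log2 scale, was the smallest of the 8 genes. The log2 difference was 1.72 ± 0.25 (SE; adjusted p = 0.0107 by edgeR's quasi-likelihood test), and it was 1.66 ± 0.16 (adjusted p = 0.0209) with the pig as a block.

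SERPINF1 and SERPINF2 are neighbours on chromosome 12, on the plus strand and 6720 bases apart, but their levels were far apart. SERPINF1 (47949004 to 47959471) was at 386 CPM in pig 1022, 109 in 1322, 127 in 1323, 227 in 1623, 111 in 1922 and 160 in 3622 in the border zone. Its remote zone levels were 64.1, 60.8, 88.9, 75.3, 57.0 and 77.0 CPM. The border zone libraries were all above the remote zone libraries, with the smallest difference in pig 1323, at 1.43-fold. The log2 difference was 1.40 ± 0.30 (SE; adjusted p = 0.0338 by edgeR's quasi-likelihood test). With the pig as a block it was 1.25 ± 0.27, and the adjusted p of 0.0746 did not pass.

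SERPINF2 (47934551 to 47942283) had 22 counts over the 6 border zone libraries, 14 of them in pig 1022 and 4 in pig 3622, and 5 counts over the 6 remote zone libraries. No library of the remote zone held more than 3 counts, which correspond to 0.0988 to 0.201 CPM depending on the library. The gene did not pass the filter, was not tested, and no fold change is given. Of the liver markers, ALB was at 1.96 to 3.56 CPM in the border zone and 2.73 to 4.60 CPM in the remote zone, TTR had at most 4 counts in a library, and APOA1 was at 36.4 to 97.0 CPM and 22.7 to 62.5 CPM.

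SERPING1, on chromosome 2 (13324160 to 13338826, minus strand), ranged from 67.6 to 515 CPM in the border zone (median 137) and from 44.7 to 128 CPM in the remote zone (median 64.2). The border zone was 8.78-fold higher in pig 1022 and 1.11-fold higher in pig 3622, while in pig 1322 it was at 0.790 of the remote zone level. With a log2 difference of 1.40 ± 0.43 (SE), equal to that of SERPINF1 but with a larger error, the adjusted p was 0.0879 by edgeR's quasi-likelihood test. Without pig 1022 the log2 difference was 0.77 (adjusted p = 0.249). Of the 4 genes listed as proteases held by C1 inhibitor, C1R had a log2 difference of 1.47 (adjusted p = 0.0778) and C1S of 1.49 (adjusted p = 0.0810). Those of MASP2 and MASP1 were 0.58 (adjusted p = 0.600) and -0.50 (adjusted p = 0.0993), all by edgeR's quasi-likelihood test.

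**Figure D2:**
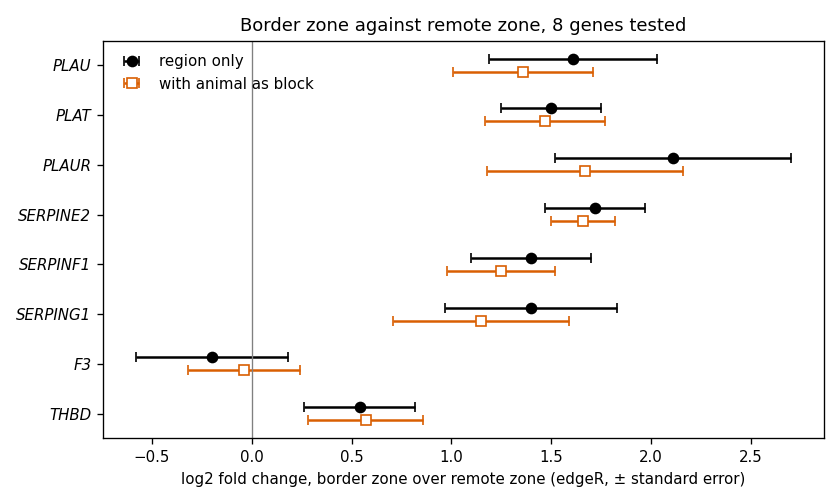
Log2 fold change of border zone over remote zone with its standard error for the 8 genes tested by edgeR, without (filled circles) and with (open squares) the pig as a block, 6 libraries per zone. The 6 genes of the activators and serpins lie between 1.15 and 2.11 in either fit, and F3 lies near 0.

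The coagulation genes had smaller differences. F3 lies on chromosome 4 (122827018 to 122837673, plus strand) and was at 6.91 to 16.1 CPM in the border zone (median 8.14) and 2.81 to 22.5 CPM in the remote zone (median 9.84). The border zone was lower in 5 of 6 pigs and 2.94-fold higher in pig 1022, whose remote zone library held the lowest F3 level of all. The fitted log2 difference was -0.20 ± 0.38 (SE; adjusted p = 0.788 by edgeR's quasi-likelihood test), and under scaling by library totals alone its sign turned, to 0.094. THBD, on chromosome 17 (30219870 to 30223499, minus strand) and without introns, was at 27.2 to 54.4 CPM in the border zone and 10.3 to 33.5 CPM in the remote zone. Its border zone was higher in 4 of 6 pigs, by 4.68-fold in pig 1022. The log2 difference was 0.54 ± 0.28 (SE; adjusted p = 0.236).

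The difference within a pig depended on the pig. In pig 1022 the border zone was higher for all 8 genes tested, with log2 differences of 1.53 to 3.88 and a median of 2.62. In pig 1322 it was higher for 4 of 8, and the median was -0.04. The medians of the other 4 pigs lay between 1.06 and 1.52. SERPINE2 was the gene that differed by more than 1.2 on the log2 scale in every pig, pig 1322 included, where its 1.56 was the highest value of the 8 genes. Of the 12 libraries, the border zone of pig 1022 held the highest level of 6 of the 8 genes.

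**Figure D3:**
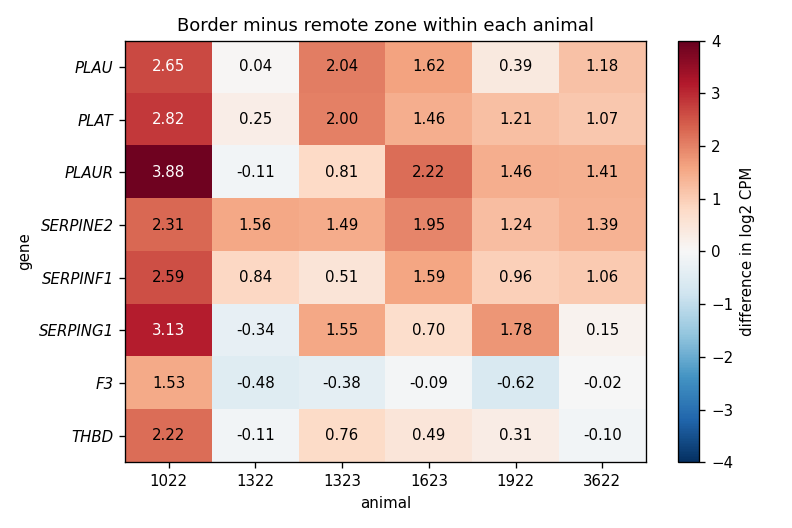
Difference in log2 CPM, border minus remote zone, for 8 genes (rows) in each of 6 pigs (columns), with red for higher and blue for lower in the border zone. Pig 1022 is red throughout (1.53 to 3.88) and pig 1322 is pale for all genes except SERPINE2 (1.56) and SERPINF1 (0.84).

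Levels of marker genes of other cells are given beside these values. Fibroblast and matrix markers, a list of 9 genes, were higher in the border zone for 7 of 9 by edgeR's quasi-likelihood test. With the pig as a block 1 of 9 passed (POSTN, adjusted p = 0.0410), and without pig 1323, 1623, 1922 or 3622 it was 0 of 9, with 8 or 9 at an unadjusted p under 0.05. DESeq2 called 8. Their median log2 fold change was 2.98, and they summed to between 3019 CPM (pig 1322) and 66620 CPM (pig 1022) in the border zone against 1035 to 2581 CPM in the remote zone. Macrophage markers summed to between 95.6 CPM (pig 1322) and 1209 CPM (pig 1022) in the border zone and between 89.7 and 181 CPM in the remote zone. For these, 0 of 7 passed in edgeR, although all 7 had an unadjusted p under 0.05 (24.7% of all genes did) and DESeq2 called 4. With the pig as a block 0 of 7 passed, and 4 had an unadjusted p under 0.05 (29.4% of all genes in that fit). The cardiomyocyte sum was lowest, 12140 CPM, in the border zone of pig 1022, and lower in the border zone of all 6 pigs, with 0 of 10 genes called by edgeR, 3 at an unadjusted p under 0.05 and 1 called by DESeq2. Among border zone libraries, that of pig 1022 held the highest level of 6 of the 8 genes tested and that of pig 1322 the lowest of 4. Endothelial markers summed to between 378 and 541 CPM in the border zone and between 279 and 642 CPM in the remote zone. None passed in edgeR, at an unadjusted p under 0.05 or in DESeq2, and with the pig as a block 1 of 9 had an unadjusted p under 0.05. Smooth muscle and pericyte markers had a median log2 fold change of 1.36, with 0 of 8 called by edgeR, 6 at an unadjusted p under 0.05 and 4 called by DESeq2. With the pig as a block 0 of these markers were called, and 3 had an unadjusted p under 0.05. Their sum, 8076 to 16970 CPM in the border zone and 8203 to 12530 CPM in the remote zone, was mostly DES, which heart muscle also expresses. The other 7 summed to between 472 and 2955 CPM in the border zone, the highest in pig 1022 and the next at 908, and to between 209 and 568.4 CPM in the remote zone. Adipocyte markers had the highest median log2 fold change of the lists, 4.2 over 2 genes tested (ADIPOQ 5.37, PLIN1 3.04), at low levels. They summed to between 0.244 and 37.6 CPM (pig 1323) in the border zone and between 0.201 and 1.19 CPM in the remote zone. By edgeR 0 of 2 passed, both had an unadjusted p under 0.05, ADIPOQ passed with the block (adjusted p = 0.0476) and DESeq2 called both. Of the neutrophil markers 1 was tested, CSF3R, at 0.340 to 7.40 CPM in the border zone, highest in pig 1022, and 0.134 to 0.713 CPM in the remote zone (log2 difference 2.39, adjusted p = 0.0810 by edgeR and 0.0166 by DESeq2). The part of these cells in the differences was not tested.

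Levels of different genes can be compared per length, as CPM per kilobase of exon. In both zones SERPINF1 had the highest median (89.4 in the border and 43.4 in the remote zone), followed by SERPING1 (72.1 and 33.9), SERPINE2 (41.6 and 13.1), PLAT (23.5 and 9.07) and THBD (8.58 and 7.88). SERPINF1 and SERPING1 overlapped, SERPINF1 being above SERPING1 in 4 of 6 libraries of each zone. SERPINE2 was above PLAT in 6 of 6 border zone and 5 of 6 remote zone libraries. At the lower end the order of the medians differed between zones. F3 (5.41) was above PLAU (1.89) in 5 of 6 remote zone libraries, while in the border zone PLAU (4.74) and F3 (4.47) each led in 3 of 6.

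**Figure D4:**
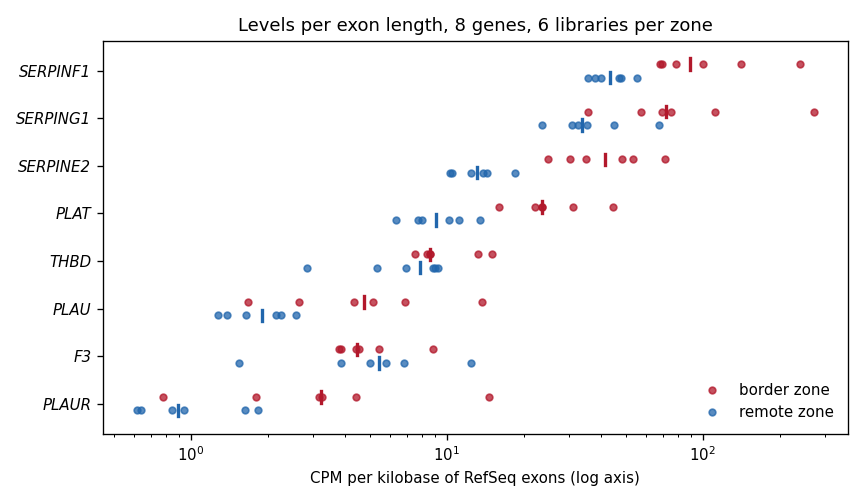
CPM per kilobase of RefSeq exons on a log axis for 8 genes in 6 border zone (red) and 6 remote zone (blue) libraries, with a short bar at each median. SERPINF1, SERPING1 and SERPINE2 have the highest medians in both zones, and the red and blue points are separate for SERPINF1, SERPINE2 and PLAT.

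Whether an activator and SERPINE2, or F3 and THBD, moved apart was asked with ratios within each library. The log2 ratio of PLAU to SERPINE2 was -2.86 ± 0.65 (SD, n = 6) in the border zone and -2.53 ± 0.45 in the remote zone. It was lower in the border zone of 4 of 6 pigs, by between 0.21 and 1.52, and the mean difference of -0.34 ± 0.76 (SD) was within the spread over pigs (p = 0.40625, two-sided exact permutation test over 64 sign patterns). For PLAT to SERPINE2 the mean difference was -0.19 ± 0.69 (SD, n = 6), lower in 4 of 6 pigs (p = 0.59375, the same exact test). The ratio of F3 to THBD was lower in the border zone of 5 of 6 pigs, with a mean difference of -0.61 ± 0.43 (SD, n = 6; p = 0.0625 by the exact test, where 0.03125 is the smallest p possible). Adjusted over the 3 ratios, these exact p values were 0.59375, 0.59375 and 0.1875.

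**Figure D5:**
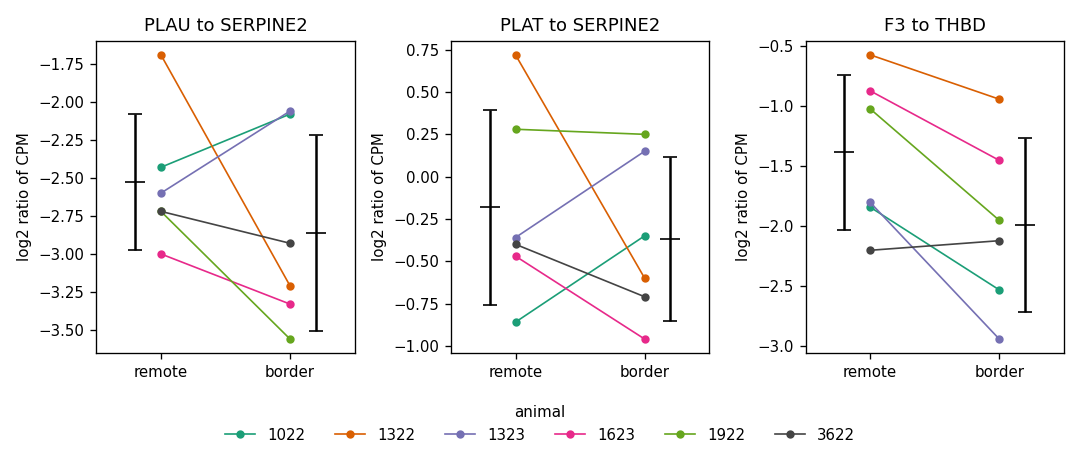
Log2 ratio of CPM for PLAU to SERPINE2, PLAT to SERPINE2 and F3 to THBD in the remote and border zone of each of 6 pigs; lines join the libraries of 1 pig, and bars show mean ± SD of a zone. The lines of F3 to THBD fall in 5 of 6 pigs, and those of the other ratios run in both directions.

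Other genes of plasminogen activation, coagulation and the serpin family were taken from a list of 53, of which 49 had an identifier in the symbol table used and 30 were tested. Of the 30, 3 passed as higher and 0 as lower in the border zone by edgeR's quasi-likelihood test, and 19 had an unadjusted p under 0.05, as did 24.7% of all genes tested. Of the 29 of these to which DESeq2 gave an adjusted p, it called 9 higher and 1 lower. Over all genes, 2.06% passed as higher by edgeR and 8.42% by DESeq2. The median log2 fold change was 0.76. MRC2, an endocytic receptor for collagen that binds the urokinase receptor, was higher by 1.83 ± 0.44 on the log2 scale (SE; adjusted p = 0.0495). ANXA2, part of the cell surface complex that binds PLAT and plasminogen, was higher by 1.29 ± 0.28 (adjusted p = 0.0338). F2RL2, a thrombin receptor of the protease-activated family, was higher by 1.18 ± 0.21 (adjusted p = 0.0276). All of them were higher in the border zone of 6 of 6 pigs, as were 11.7% of all genes tested. With the pig as a block, 0 of the 30 passed in edgeR, 17 had an unadjusted p under 0.05 (29.4% of all genes in that fit), and the lowest adjusted p was 0.0654.

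By group, 2 of 9 genes of plasminogen and fibrinolysis, 1 of 10 of coagulation and thrombin, 0 of 7 other serpins and 0 of 4 proteases held by C1 inhibitor passed in edgeR. In the last 2 groups 4 and 3 genes had an unadjusted p under 0.05, and DESeq2 called 1 of the 6 serpins with an adjusted p higher and, of the 4 proteases, 2 higher and 1 lower. PLG, the gene of plasminogen itself, which the liver makes, did not pass the filter. Its highest count, 30, was in the border zone library of pig 3622, the library with the lowest total and the most genes detected.

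Across the 12 libraries, the 6 genes of activators and serpins varied together, with Pearson's r between 0.73 (SERPINE2 and SERPING1) and 0.94 (SERPINE2 and SERPINF1) on log2 CPM. All libraries of a zone share that zone and the same pigs, so these values describe the libraries. THBD had r between 0.46 and 0.75 with the same 6 genes, the highest with PLAT, and F3 had r between -0.27 and 0.11. The genes most like SERPINE2 were PI16 (r = 0.971), CCDC80 (0.970) and SFRP1 (0.964), those most like SERPINF1 were COL8A1 (0.983), FMOD (0.980) and CHAD (0.979), and those most like PLAT were IGF1 (0.971), FIBIN (0.967) and IL1R1 (0.954). For SERPING1 they were PCDHGA4 (0.984), PMP22 (0.983) and AXL (0.980), for PLAU they were DUSP4 (0.962), TIFA (0.954) and KMO (0.946), and for PLAUR they were VMP1 (0.975), RASA2 (0.974) and CD83 (0.972). F3 was matched less closely, by TEX30 (0.869), KCNE3 (0.783) and MYCN (0.782), and THBD by ID1 (0.887), FAM89A (0.883) and MGAT3 (0.867).

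The calls depended on the test and on single pigs. DESeq2 called 6 of the 8 genes, all but F3 and THBD, against 8.42% of all genes that it called higher in the border zone. Ranges that did not overlap between zones, border zone higher, were found for 1.99% of all genes tested. Without pig 1323, 1623 or 3622, 0 of the 8 genes passed in edgeR, with 6 at an unadjusted p under 0.05 in each case, where 19.9%, 19.4% and 17.7% of all genes had one, and 3, 0 and 0 genes passed in all. Without pig 1922, SERPINE2 alone passed. Without the border zone library of pig 1022, SERPINE2, SERPINF1 and PLAT passed, with 307 genes called in all. The log2 difference of SERPINE2 stayed between 1.55 and 1.81 when each pig was left out in turn.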

How the data were processed

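RNA of the border and remote zone of 6 pigs was measured in 12 libraries. The values deposited by the authors are raw read counts per gene. Libraries were poly(A)-enriched and nondirectional. Reads were checked with FastQC 0.12.1 and MultiQC 1.17, aligned with STAR 2.7.10a to the Sscrofa11.1 genome with Ensembl release 113 genes, and counted with featureCounts 2.16.1. How reads that fit several genes were counted is not given in the sources used here. Zone and pig were taken from the labels. The genes and lists described were chosen with earlier results of these data known.

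Symbols came from a table that paired 15623 of 35682 identifiers. The tools were edgeR 4.0.16 and DESeq2 1.42.0 under R 4.3.3, and Python 3.11.15. Genes kept by filterByExpr (13844) were scaled by TMM and tested by the robust quasi-likelihood test of edgeR with zone as the term, Benjamini-Hochberg adjustment over all genes tested and a threshold of 0.05. Standard errors were obtained as the log2 fold change over the square root of the F statistic. Log2 CPM used a prior count of 2. Both libraries of a number come from 1 pig, so the numbers pair them. Deviations from the zone means correlated within pigs with a mean r of 0.35 across genes (-0.03 to 0.57, over 0.1 in 4 of 6 pigs). Ratios were tested by an exact permutation test over the 64 sign patterns of 6 pigs. No 2 libraries agreed within sampling noise (smallest chi-square per gene 27.3). PCR copies cannot be told from separate molecules, so the limit given for 3 counts covers counting error only.

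Gene models, exon lengths and promoters came from RefSeq on Sscrofa11.1, the build of the files. The fit was tested on simulated data. Alternatives were the pig as a block, the DESeq2 test, its size factors, scaling by library totals, leaving out the filter, a minimum of 10 counts per library, each pig or the border zone library of pig 3622 or 1022 left out, and prior counts of 0.5 and 5 for ratios. Genes named are the 9 genes, the other listed genes past the threshold, and for each tested gene the 3 with the highest correlation over the libraries. Marker genes, CAMK2G, PLG, C1R, C1S, MASP1, MASP2, SERPINB2 and VTN fall outside this rule and were named after their values were seen.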

Additional observations from a re-analysis of the deposited data

Results flagged for a closer look

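The 6 values of each zone for the 8 genes tested, and the 6 differences of each ratio, were examined for a library far from the rest by Dixon's ratio. In these 19 groups, 0 libraries stood apart, where chance sets apart about 1 in 20 groups.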

How the results depend on the processing

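Of 112 member values under the alternatives, 90 kept their direction and their side of the threshold, 14 no longer passed, 7 newly passed and 1 reversed, the log2 difference of F3 under library totals (0.094). The cause was not tested where none is given. Over all genes, 287 were past the threshold in the reported fit, 41 with the pig as a replicate block, 1719 by DESeq2, 1551 with library totals, 139 with no filter, 149 with at least 10 counts in every library and 156 without the border zone library of pig 3622. Scaling by library totals moved the median of all genes from 0.04 to 0.32 on the log2 scale. With each pig left out the count ran from 0 to 519. It was 163 without pig 1022, 519 without 1322, 3 without 1323, 15 without 1922 and 0 without 1623 or 3622, with 2662 and 2448 genes at an unadjusted p under 0.05 in edgeR.

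Of the 8 genes, 3 passed in the reported fit, 1 with the block, 6 by DESeq2, 6 with library totals and 0 to 4 with each pig left out. PLAU joined them without pig 1322 (adjusted p = 0.0476 by edgeR). SERPINF1 did not pass without the border zone library of pig 3622 (adjusted p = 0.0527 by edgeR). Of the other listed genes, 3 passed in the reported fit, 0 with the block, 10 by DESeq2, 10 with library totals, 1 without the border zone library of pig 3622 and 0 to 3 with each pig left out. With each pig left out, the mean log2 ratio of PLAT to SERPINE2 ran from -0.33 to 0.036, the sign turning without pig 1322. Those of PLAU to SERPINE2 (-0.51 to -0.099) and F3 to THBD (-0.74 to -0.50) kept their sign. Low counts limit PLAUR in the remote zone and SERPINF2 throughout.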

Other observations

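SERPINB2, which encodes an inhibitor of urokinase, was at 130 to 305 CPM in the border zone and 75.5 to 342 CPM in the remote zone. Its log2 difference was 0.41 ± 0.35 (SE; adjusted p = 0.489 by edgeR's quasi-likelihood test), with the border zone level above the remote zone level in 3 of 6 pigs. VTN, whose product vitronectin binds the urokinase receptor, was lower in the border zone of 6 of 6 pigs, at 8.99 to 31.9 CPM against 27.1 to 36.7 CPM (log2 difference -0.43 ± 0.24, adjusted p = 0.271). MASP1, a protease held by C1 inhibitor, was at 65.9 to 109 CPM in the border zone and 110 to 159 CPM in the remote zone, without overlap (log2 difference -0.50 ± 0.16, adjusted p = 0.0993). These 3 genes were chosen after their values were seen. How many of all genes were lower in the border zone of every pig, or lower without overlap, is not given here.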
